A study of Rattus norvegicus with 12 samples.

Results

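Repair Schwann cell genes were followed in sciatic nerves, dorsal root ganglia (DRG) and dorsal spinal cords of rats that received the MBP84-104 peptide, a fragment of myelin basic protein, in 1 sciatic nerve. The set holds 10 genes, which were found on the arrays through the RefSeq accession of each probe. They are Jun, Sox2, Olig1 and Runx2, which encode transcription factors, Shh, Artn and Btc, which encode secreted ligands, and Ngfr, Ncam1 and Cdh2, which encode a receptor and adhesion proteins. Of the 10 genes, 9 had a named probe, out of 15159 genes named on the array. No probe of the array carried an accession that the annotation used here pairs with Runx2, so Runx2 is not analysed here. Sox2 had 2 probes and each other gene 1.

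A Schwann cell whose axon is damaged leaves its myelinating state and becomes a repair cell, which breaks down myelin, calls in macrophages, supplies growth factors to neurons and guides regrowing axons. The transcription factor c-Jun, encoded by Jun, drives much of this switch, and Shh, Artn, Olig1 and Btc are known as genes that injured Schwann cells switch on. Sox2 holds Schwann cells in an immature state and opposes the myelin program. The low affinity neurotrophin receptor p75NTR (Ngfr), NCAM (Ncam1) and N-cadherin (Cdh2) are surface proteins of immature, non-myelinating and repair Schwann cells.

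RNA was measured on 12 single-colour arrays, each with the pooled RNA of 3 female rats aged 8 weeks. According to the sample labels, wild-type rats were Sprague-Dawley and were examined 12 days after the injection, and nude rats were athymic Hsd:RH-Foxn1rnu rats examined 7 days after it. Nude rats carry the rnu mutation of Foxn1 and lack a functional thymus and mature T cells. Slide 1 held the 6 nude arrays together with both wild-type nerve arrays, while slide 2 held wild-type DRG and cord only. In both rat types the left sciatic nerve received 50 µg of the peptide in 5 µl PBS, and the right nerve, called contralateral, received PBS. The other arrays held the left and right L4 and L5 DRG, called injected-side and contralateral, and the dorsal cord of the left side at the lumbar enlargement and above it, called lumbar and thoracic. The paper gives another strain for wild-type rats in its behavioural tests and the same day for both rat types, and the labels were followed here. Strain and day differ between the rat types and cannot be told apart from the mutation.

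Each condition was 1 array, so differences between conditions have no replicate check and carry no p-value. The median spot signal ran from 23.5 (injected nude nerve) to 122 (thoracic wild-type cord), and 59.5% to 76.9% of spots were well above background. No spot was saturated. Levels are log2 signals minus the median of the array, so that 0 is the typical probe of that array, and log2 ratios subtract the contralateral level from the injected one, or the thoracic from the lumbar. The ± values of ratios are standard errors over the spots of a probe (10 spots for Ngfr, Olig1 and Cdh2, and 2 for the other members), and they cover spot error but no difference between rats. In whole tissue, fewer cells of a type and less RNA per cell cannot be told apart. The tissue labels matched their markers. The summed level of the sensory neuron markers was 734 to 834 times the array median in the DRG against 8.85 to 12.3 in the nerve, and that of the oligodendrocyte markers was 665 to 1057 in the cord against 49.1 to 64.9 in the nerve.

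Jun, Sox2, Olig1, Ngfr and Ncam1 were well above background on all 12 arrays, and Artn and Cdh2 on 11. Btc was well above background on 3 arrays, the injected wild-type nerve and both wild-type DRG. Shh, the ligand sonic hedgehog, was well above background on 0 of 12 arrays, so the arrays give no ratio for it. Its measured levels lay between -3.49 and -1.90.

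**Figure D1:**
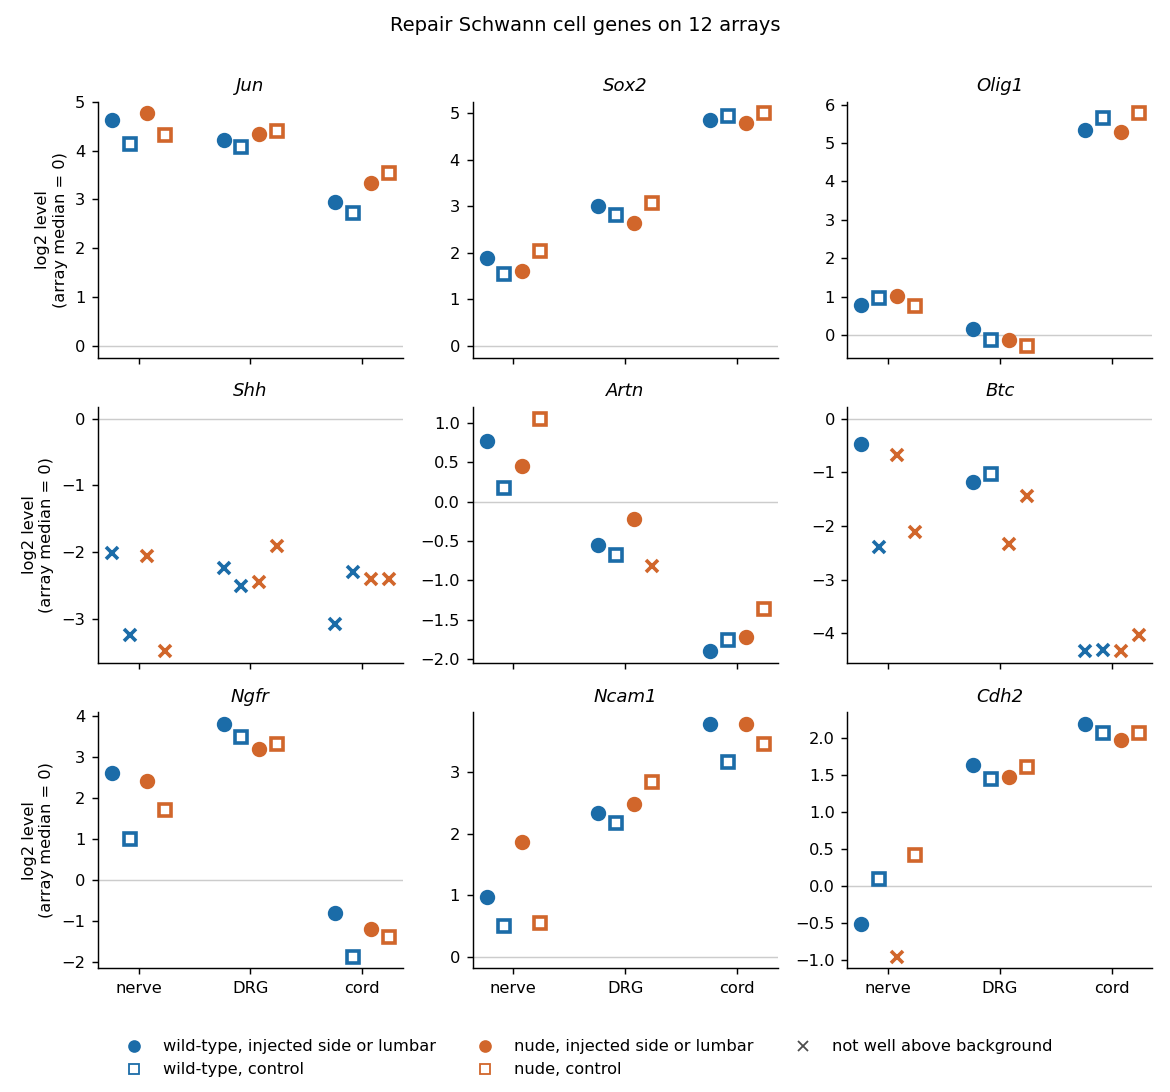
Log2 level of the 9 members with a probe on each of the 12 arrays, with the array median at 0 and 1 panel per gene. Filled points are the injected side or lumbar cord, open squares their controls, and crosses arrays on which the probe was not well above background. Olig1 and Sox2 stood highest in the cord, Ngfr in the DRG and Artn in the nerve, and Shh was a cross on every array.

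In the wild-type nerve the receptor gene Ngfr stood out among the members, at 3.09-fold the contralateral level. The other ratios were smaller than 2-fold, that of Btc as a lower bound, with Jun, Artn, Ncam1, Sox2 and Btc higher on the injected side and Cdh2 and Olig1 lower. Of 8 measured members, 6 were higher, against 44.7% of all 10213 genes measured, and 1 was at least 2-fold higher, against 4.68% of all genes. None was at least 2-fold lower, against 4.08%. The median log2 ratio of the members was 0.48, and that of all genes was -0.05. Btc, seen on the injected array alone, could only count as higher. With both arrays required above background, 5 of 7 members were higher, with a median of 0.47 against -0.07 for all genes.

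Among the transcription factors, Jun had a level of 4.62 in the injected nerve of wild-type rats and 4.14 in the contralateral one. Its log2 ratio was 0.48 ± 0.02, or 1.40-fold, above the ratios of 86.5% of genes. Sox2 had levels of 1.88 and 1.56 and a ratio of 0.33 ± 0.23. Its second, dimmer probe went the other way, with levels of -0.98 and -0.64, so the array gives Sox2 no settled direction in this nerve. Olig1, which encodes a basic helix-loop-helix factor best known from oligodendrocytes, had levels of 0.78 and 0.97 and a ratio of -0.19 ± 0.07.

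Of the ligands, Artn encodes artemin, a GDNF family ligand that acts on sensory neurons through GFRα3 and RET. Its level was 0.77 after the peptide and 0.17 on the PBS side, a ratio of 0.60 ± 0.33, where the spread between its 2 spots on the contralateral array was large (SD 0.47). Btc encodes betacellulin, a ligand of the EGF receptor family. It was well above background on the injected nerve, at -0.47, and not on the contralateral nerve, at -2.39, and was at least 1.94-fold higher on the injected side. As a log2 ratio that bound was 0.96, and it was 0.245 after normexp correction, a model-based subtraction of the local background. Normexp as run here also adds a constant of 50 to each signal, which draws ratios of dim probes toward 0 by construction. The processed signals of Btc, 26.0 on the injected and 6.31 on the contralateral nerve, were below that constant. The shares of the constant and of the background subtraction in the lower value were not tested.

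Of the surface proteins, Ngfr had a level of 2.61 in the injected nerve, against 0.99 in the contralateral nerve. Its log2 ratio was 1.63 ± 0.04 and exceeded that of 98.3% of genes. Over the 9 alternative settings it stayed between 1.10 and 1.70 and past 2-fold. The filters, the floor and the probe average could not change it, since its 1 probe was well above background on both arrays. Ncam1 had levels of 0.97 and 0.50 and a ratio of 0.47 ± 0.18. Cdh2 was the member that stood lowest, with levels of -0.51 and 0.10 and a ratio of -0.61 ± 0.07, below the ratios of 88.1% of genes.

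In the nude nerve Ncam1 had the largest ratio of the members and Cdh2 the lowest. The injected nude nerve was the dimmest array, and the median log2 ratio of all genes between the nude nerves was -0.38, or -0.11 with the 75th percentile of each array as its zero. Each member's nude nerve ratio is therefore also given relative to this median. Of 7 measured members, 4 were higher on the injected side, against 28.1% of 9456 genes. Ncam1 was past 2-fold higher, where 7.52% of genes were, and Cdh2 past 2-fold lower, where 13.5% were. The median log2 ratio of the members was 0.25, or 0.64 above that of all genes. Cdh2, seen on the contralateral array alone, could only count as lower. With both arrays required above background, 4 of 6 members were higher, with a median of 0.35 against -0.37 for all genes.

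Ncam1 had a level of 1.86 in the injected nerve of nude rats, against 0.56 in the contralateral nerve. Its ratio was 1.31 ± 0.27, or 2.47-fold, and stood 1.69 above the median of all genes. It was 1.60 with the 75th percentile, 1.36 with quantile normalization, 1.56 with cyclic loess and 0.31 after normexp correction. The filters, the floor and the probe average could not change it. Ngfr had levels of 2.40 and 1.69 and a ratio of 0.71 ± 0.04, which was 1.09 above the median of all genes. Jun had levels of 4.76 and 4.32 and a ratio of 0.44 ± 0.03, or 0.82 above that median. Olig1 had levels of 1.02 and 0.77 and a ratio of 0.25 ± 0.07, or 0.64 above it. After normexp correction the ratios of Jun (-0.62), Ngfr (-0.10) and Olig1 (-0.15) turned negative. The constant of 50 that normexp adds is larger than the median spot signal of the injected nude nerve, 23.5. Compared with the median of all genes, the 3 genes stayed above it under all 9 alternatives, by at least 0.24, 0.74 and 0.28.

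Sox2 had levels of 1.60 and 2.03 in the injected and contralateral nerves of nude rats. Its ratio of -0.43 ± 0.18 lay -0.05 from the median of all genes. Artn had levels of 0.45 and 1.05, with a ratio of -0.60 ± 0.08, or -0.22 relative to the median. Cdh2 was not well above background on the injected nerve, at -0.96, and had a level of 0.42 on the contralateral nerve. Against the lowest detected signal of the injected array it was at least 2.05-fold lower on the injected side, a log2 ratio of -1.04 that stood -0.65 from the median of all genes. Relative to the median of all genes, these 3 genes turned sign over the alternatives, with Sox2 between -0.40 and 0.15, Artn between -0.57 and 0.40 and Cdh2 between -1.34 and 0.53, the highest value of each after normexp correction. Btc was not well above background on either nude nerve.

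Jun, Ngfr and Ncam1 were higher on the injected side of both rat types and Cdh2 was lower in both, apart from the normexp values of Jun and Ngfr in nude rats. Artn had opposite signs in wild-type and nude rats under each alternative, but not relative to the median of all genes. On that scale its normexp values were 0.29 in wild-type and 0.40 in nude rats. Sox2 and Olig1 also had opposite signs, but not when both Sox2 probes were averaged (-0.0023 and -0.58), nor for Olig1 after normexp correction (-0.04 and -0.15). The difference between the rat types was not tested, since each ratio comes from 1 pair of arrays.

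**Figure D2:**
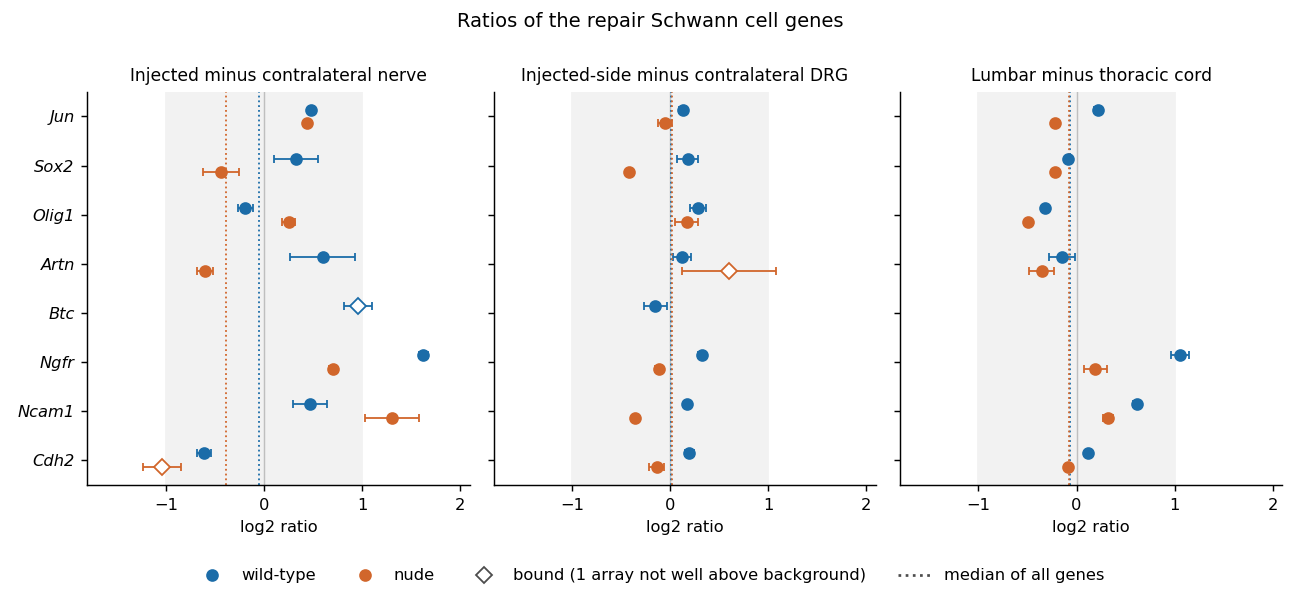
Log2 ratio of the members in nerve, DRG and cord of wild-type (blue) and nude (orange) rats, with spot standard errors as bars, the median of all genes as dotted lines and ratios under 2-fold shaded. Open diamonds are bounds, where 1 of the pair of arrays was not well above background. Ngfr in the wild-type nerve (1.63) and cord (1.06) and Ncam1 in the nude nerve (1.31) lay past 2-fold higher, and the nude nerve ratios of Jun, Ngfr and Olig1 turned negative after normexp correction.

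Other genes of the repair and immature state were split between the directions. A list of 27 such genes beyond the members had 18 measured in the wild-type nerve, of which 10 were higher, 3 of them by 2-fold or more, and 0 past 2-fold lower, with a median of 0.08. In nude rats 8 of 18 were higher and 3 past 2-fold, with a median of -0.04, or 0.35 above that of all genes. Tnc, which encodes the matrix protein tenascin-C, had a wild-type ratio of 2.18 ± 0.07 and a nude ratio of 2.06 ± 0.10. Igfbp2, which binds insulin-like growth factors, had ratios of 1.12 ± 0.03 and -0.42 ± 0.03. Relative to the median of all genes, the nude ratios were 2.44 for Tnc and -0.04 for Igfbp2. The nude genes past 2-fold beside Tnc were the adhesion gene L1cam (1.01) and Ucn2 (1.13), named with their values in view like the other genes outside the naming rule. Gdnf and Bdnf, both growth factors of repair cells, were not well above background on any nerve array.

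Of the partners of Jun in the AP-1 dimer, 6 of 7 measured were higher on the injected side in the wild-type nerve, 3 of them at least 2-fold, with a median of 0.47. Fosl1, Fosl2 and Maff were not well above background on the contralateral array, so they could enter this count only as higher. In nude rats 3 of 5 were higher, 1 at least 2-fold, with a median of 0.74, or 1.13 above that of all genes. There Fosl1 could enter only as higher, while Fosl2, Batf and Maff, seen on the contralateral array alone, gave no ratio and are not in the count. The summed level of the list was 155 times the array median in the injected and 143 in the contralateral nerve of wild-type rats, and 136 and 147 in those of nude rats. Fosl1, which encodes FRA1, was at least 2.82-fold higher in wild-type and at least 4.26-fold higher in nude nerve. The immediate early gene Junb had a wild-type ratio of 1.12 and a nude ratio of 0.89, and Fos of 0.47 ± 0.05 and 0.74 ± 0.06. Relative to the median of all genes, the nude ratios were 1.27 for Junb and 1.13 for Fos. Batf, an AP-1 factor of immune cells, had a ratio of 1.45 ± 0.28 in the wild-type nerve and gave no ratio in the nude nerve.

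Signaling genes of the member ligands lay nearer to 0 or below it. Of 8 measured Hedgehog pathway genes, 3 were higher in the wild-type nerve and 0 were past 2-fold in either direction, with a median of -0.12. Nude rats had 2 of 6 higher and 1, Disp1 (-1.06), past 2-fold lower. The nude median was -0.51, or -0.13 relative to all genes. Gli1 and Ptch1, transcriptional targets of Hedgehog signaling, both had a wild-type ratio of -0.12, and nude ratios of -0.99 and -0.50. Both were picked for that role after their values were seen. Smo, the signal transducer, had ratios of -0.57 ± 0.27 and -0.53 ± 0.21. Sufu, an inhibitor of the GLI factors, had ratios of 0.55 ± 0.26 and 0.52 ± 0.03, and Gli2 of 0.54 ± 0.05 and 0.31 ± 0.08. Relative to the median of all genes, the nude ratios were -0.15 for Smo, 0.90 for Sufu and 0.69 for Gli2.

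Among the receptors of artemin and betacellulin and the partners of p75NTR, 3 of 9 measured genes were higher in the wild-type nerve and 3 were past 2-fold lower, with a median of -0.32. The nude nerve had 1 of 9 higher and 2 past 2-fold lower, with a median of -0.88, or -0.50 relative to all genes. The neurotrophin receptors Ntrk2 and Ntrk3 had wild-type ratios of -1.44 and -0.66, opposite in sign to Ngfr. Their nude ratios were -0.16, a bound, and -0.90, or 0.23 and -0.52 relative to the median of all genes. Ret, the signaling receptor of artemin, had a wild-type bound of -1.41 and a nude bound of -0.88, and Sort1, a partner of p75NTR, had ratios of -0.14 and -1.12, the latter a bound.

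Myelinating Schwann cell genes, which repair cells turn down, stood lower on the injected side. In the wild-type nerve 0 of 15 measured genes were higher and 7 were at least 2-fold lower, with a median of -0.96. In nude rats 2 of 15 were higher, Mag (0.44) and Mbp (0.23), and 10 past 2-fold lower, with a median of -1.53, or -1.14 relative to all genes. Drp2 and Prx, which encode proteins of the dystroglycan complex under the Schwann cell membrane, had ratios of -1.45 ± 0.13 and -1.36 ± 0.02 in wild-type and -2.17 ± 0.22 and -1.79 ± 0.0027 in nude rats. Fa2h, an enzyme of myelin lipid synthesis, had ratios of -1.30 ± 0.03 and -1.86 ± 0.02.

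**Figure D3:**
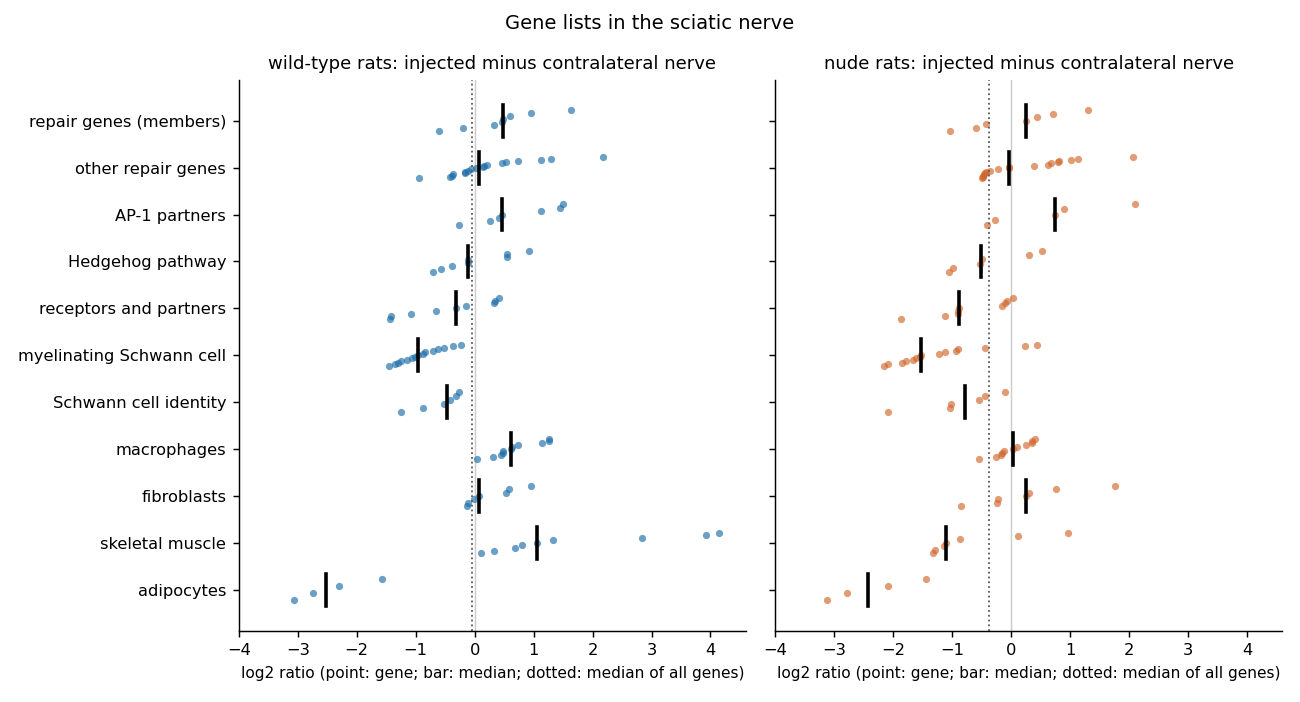
Log2 ratio of injected over contralateral nerve for each measured gene of the members, the other lists and the marker lists of the nerve's cell types, in wild-type (left) and nude (right) rats. Black bars are list medians and the dotted line is the median of all genes. Members lay on both sides of 0 with medians of 0.48 and 0.25, while myelinating genes lay mostly below it with medians of -0.96 and -1.53.

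Markers of other cell types also differed between the nerve arrays, and their part in the members' ratios was not tested. Of 6 Schwann cell identity markers with a probe, 6 were lower on the injected side in wild-type and 6 in nude rats. Their summed level was 402 times the array median in the injected wild-type nerve, 755 in the contralateral one, and 347 and 794 in those of nude rats. Macrophage markers summed to 3685 and 2221 in wild-type rats, with 11 of 11 higher, and to 2739 and 2521 in nude rats, with 6 of 11 higher. Against the median of all genes, which was below 0 in the nude nerve, 11 of 11 stood above it in wild-type and 10 of 11 in nude rats. Skeletal muscle, which also makes NCAM when denervated, differed as well. Its markers summed to 146 and 36.7 in wild-type rats, with 9 of 9 measured higher, and to 21.0 and 21.6 in nude rats, with 2 of 7 higher, and Myh2 was detected on none of these arrays. Adipocyte markers summed to 69.7 and 318 in wild-type and 66.9 and 389 in nude rats, with 0 of 4 measured higher in either, and Lep was not well above background on any. Fibroblast markers summed to 10950 and 10010, and to 12720 and 11120, with 4 of 7 higher in each rat type. Erbb3, Myh1, Myl11, Ckm, Cidec and Lipe were not well above background on the injected nude nerve, so they could count there only as lower. The same held for Cidec in the wild-type nerve.

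In the DRG the members differed little between the sides. In wild-type rats 7 of 8 measured members were higher on the injected side, against 52.0% of 10831 genes, and 0 were past 2-fold, against 1.01% of genes. Their ratios ran from -0.15 ± 0.12 for Btc to 0.32 ± 0.04 for Ngfr, with a median of 0.17 against 0.01 for all genes. In nude rats 2 of 7 were higher, against 53.6% of 9537 genes, and 0 were past 2-fold, against 1.07%. The median was -0.12 against 0.02 for all genes. Artn, seen on the injected-side array alone, could only count as higher, and with both arrays required 1 of 6 members was higher.

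Ngfr had levels of 3.79 and 3.47 in the injected-side and contralateral DRG of wild-type rats, and of 3.18 and 3.30 in those of nude rats. The nude ratio was -0.12 ± 0.04. Artn was well above background on the injected-side nude DRG, at -0.22, and not on the contralateral one, at -0.82, and its ratio there was a bound of 0.60 ± 0.48. The lowest nude ratios were those of Sox2 (-0.42) and Ncam1 (-0.36). Skeletal muscle markers summed to 47.6 and 18.6 on the injected-side and contralateral nude DRG and to 31.9 and 29.4 in wild-type rats. In nude rats 6 of 8 measured were at least 2-fold higher on the injected side. Of these 8, Myh1, Myl11 and Ckm were well above background on the injected side alone and could count only as higher. The part of muscle in these ratios was not tested. In wild-type DRG, Gli2 of the Hedgehog list had a bound of 1.59 and was the only gene past 2-fold among the repair, AP-1, Hedgehog, receptor and myelinating lists.

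In the cord Ngfr again had the largest member ratio in wild-type rats. Of 7 measured members, 4 had the higher level in the lumbar cord, against 40.3% of 11065 genes. Ngfr alone was past 2-fold higher, where 0.913% of genes were, and 0 members were past 2-fold lower, where 0.831% were. In nude rats 2 of 7 were higher, against 37.7% of 10689 genes, and 0 were past 2-fold, against 1.37%. The member medians were 0.12 in wild-type and -0.22 in nude rats, and those of all genes were -0.07 in both.

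The Ngfr levels were -0.81 for the lumbar and -1.87 for the thoracic segment of wild-type rats, both well above background but below the typical probe. Its ratio was 1.06 ± 0.09, or 2.08-fold, above the ratios of 99.2% of genes. It was 1.10 with the 75th percentile, 1.01 with quantile normalization, 1.06 with cyclic loess and 0.38 after normexp correction. The filters, the floor and the probe average could not change it. In nude rats the levels were -1.20 and -1.39 and the ratio was 0.19 ± 0.12. Ncam1 was the other member that stood higher in the lumbar cord of both rat types, with ratios of 0.61 ± 0.04 and 0.32 ± 0.05. Olig1 was lower in the lumbar cord of both, with levels of 5.34 and 5.66 in wild-type and 5.28 and 5.77 in nude rats and ratios of -0.32 ± 0.01 and -0.50 ± 0.01.

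Myelinating Schwann cell genes were split between the cord segments, and their part in the ratio of Ngfr was not tested. Of 15 measured, 8 were higher and 7 lower in the lumbar cord of wild-type rats, with 7 at least 2-fold higher, 0 at least 2-fold lower and a median of 0.56. In nude rats 7 were higher and 8 lower, with 5 at least 2-fold higher, 1 at least 2-fold lower and a median of -0.04. Prx had wild-type and nude ratios of 3.12 and 2.60, Cldn19 of 2.58 and 2.14, and Pmp22 of 2.34 and 1.82. Egr2, the transcription factor that drives peripheral myelination, had a ratio of at least 2.49 in wild-type and of 1.47 in nude rats. Mag, a myelin gene that oligodendrocytes share, stood lower, with ratios of -0.42 and -1.07. Of 8 oligodendrocyte markers, 1 was higher in the lumbar cord of wild-type rats and 0 in nude rats, with summed lumbar and thoracic levels of 697 and 904 in wild-type and 665 and 1057 in nude rats. The Schwann cell identity list, which holds genes that oligodendrocytes share, such as Sox10, summed to 1418 and 2297 in wild-type and 1372 and 2048 in nude rats. Of its 6 genes with a probe, 2 were higher in the lumbar cord of each rat type. The genes named here beside Ngfr were chosen after their values were seen.

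**Figure D4:**
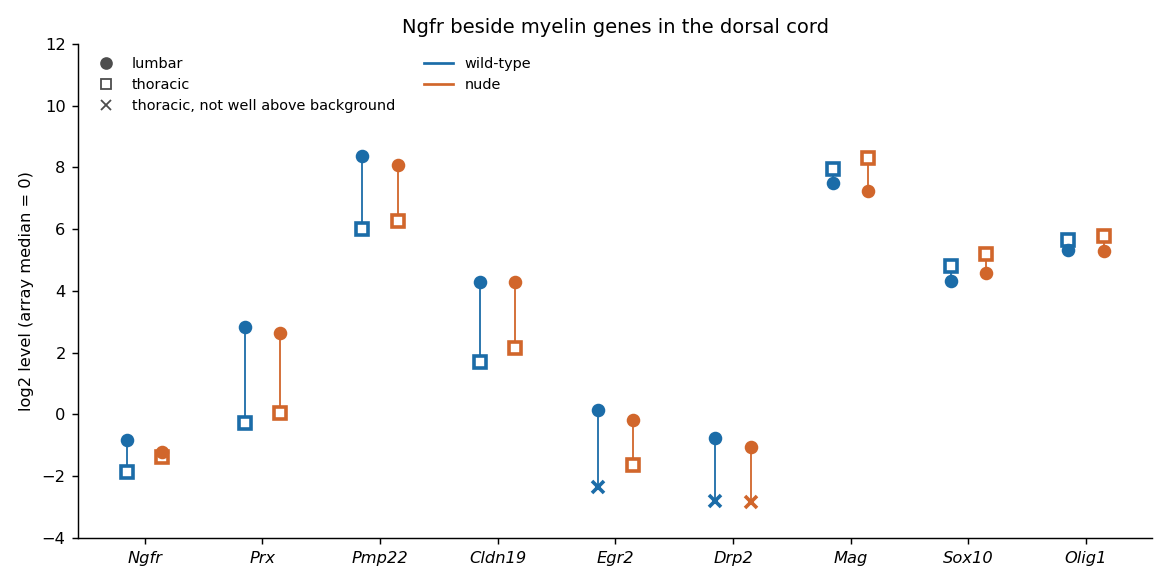
Log2 level (array median at 0) of Ngfr, of genes of peripheral myelin (Prx to Drp2) and of genes that oligodendrocytes express (Mag to Olig1) in lumbar (filled) and thoracic (open or cross) dorsal cord of wild-type (blue) and nude (orange) rats. Lines join the segments of 1 rat type, and levels of different genes are not comparable, since each probe binds its target differently. The genes were chosen after their values were seen, from lists that ran both ways (of 15 myelinating Schwann cell genes, 7 were lower in the lumbar cord of wild-type and 8 in that of nude rats). Of those drawn, Ngfr and Prx to Drp2 stood higher in the lumbar cord and Mag, Sox10 and Olig1 lower.

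Where the members are expressed was tested across tissues with limma on all 12 arrays, 4 of each tissue, with rat type and side as covariates. The fit held no term for the slide. In wild-type rats the nerve arrays lay on slide 1 and the others on slide 2, so slide and tissue cannot be told apart there. The 4 arrays of a tissue are different conditions, so the p-values measure the spread between these arrays. By the paper's description, both nerves and likewise both cord segments of a rat type came from the same animals. The arrays of a tissue then hold 1 pool of rats per rat type and are not independent samples of rats, so the p-values do not cover the spread between animals. A gene was called at a Benjamini-Hochberg adjusted p under 0.05 and a difference of at least 2-fold, over 11095 genes well above background on at least 4 arrays. Of the 7 members tested, 5 were called between nerve and DRG, where 18.7% of all genes were called, with 1 higher in the nerve (all genes, 11.3%) and 4 lower (7.44%). Between nerve and cord 7 of 7 were called, where 38.9% of all genes were, with 3 higher in the nerve (21.4%) and 4 lower (17.6%). With the slide as a block 6 members were called against the DRG, where 2074 of all genes were. Against the cord 7 members were called, where 4200 of all genes were. Ngfr was then -1.30 against the DRG.

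The 4 values of each gene below are given for the injected and contralateral wild-type nerve (or side, or lumbar and thoracic cord) and then the same in nude rats. Artn stood higher in the nerve than in both other tissues, with nerve levels of 0.77, 0.17, 0.45 and 1.05. In the DRG its levels were -0.56, -0.67, -0.22 and -0.82, the last not well above background, and in the cord -1.90, -1.75, -1.72 and -1.37. The 3 tissues did not overlap. The share of all genes whose tissues separate in this way was not counted, here and for the members below. By limma, Artn was 1.18 (SE 0.20) higher in the nerve than in the DRG on the log2 scale, with an adjusted p of 0.0005977. It was 2.30 (SE 0.20) higher than in the cord, with an adjusted p of 1.158e-06. The DRG call was lost with the 75th percentile (0.95), after normexp correction (0.46) and with nude arrays alone (1.27).

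Jun had nerve levels of 4.62, 4.14, 4.76 and 4.32 and DRG levels of 4.21, 4.08, 4.34 and 4.40, which overlapped. The limma difference of 0.20 between them had a 95% interval from -0.15 to 0.55 and an adjusted p of 0.3229. In the cord Jun was lower, at 2.94, 2.72, 3.33 and 3.55, with a difference of 1.32 (SE 0.16, limma adjusted p 1.702e-05) that was 0.72 and not called after normexp correction.

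Ngfr was highest in the DRG, with levels of 3.79, 3.47, 3.18 and 3.30, intermediate in the nerve, at 2.61, 0.99, 2.40 and 1.69, and lowest in the cord, at -0.81, -1.87, -1.20 and -1.39. No array of 1 tissue reached into the range of another. The nerve was 1.51 (SE 0.26) below the DRG, with a limma adjusted p of 0.0005838, and 3.24 (SE 0.26) above the cord, with an adjusted p of 5.325e-07. The difference to the cord was called under all 25 alternatives, from 1.46 to 3.52. Some of these could not change it, such as leaving out a DRG array.

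Sox2, Olig1, Ncam1 and Cdh2 were highest in the cord. Sox2 had cord levels of 4.86, 4.94, 4.78 and 5.00, DRG levels of 3.00, 2.82, 2.65 and 3.07, and nerve levels of 1.88, 1.56, 1.60 and 2.03. The ranges of the tissues did not overlap, with the cord highest and the nerve lowest. By limma the nerve was 1.12 (SE 0.15) below the DRG (adjusted p 0.000116) and 3.13 (SE 0.15) below the cord (adjusted p 9.725e-09), and the DRG call was lost when the mean of both Sox2 probes was used (-0.98) and after normexp correction (-0.76).

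Olig1 had the widest span, with cord levels of 5.34, 5.66, 5.28 and 5.77 against nerve levels of 0.78, 0.97, 1.02 and 0.77 and DRG levels of 0.15, -0.13, -0.12 and -0.28. It was 4.63 (SE 0.16) lower in the nerve than in the cord, or 24.8-fold, with a limma adjusted p of 1.163e-09. Against the DRG it was 0.98 (SE 0.16) higher in the nerve, with a limma adjusted p of 0.000415, but just under the 2-fold threshold, and it passed that threshold at 1.04 with the slide as a block.

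Ncam1 had cord levels of 3.79, 3.17, 3.78 and 3.46, DRG levels of 2.35, 2.18, 2.49 and 2.84, and nerve levels of 0.97, 0.50, 1.86 and 0.56. The injected nude nerve lay nearest to the DRG but did not reach it. The nerve was 1.49 (SE 0.22) below the DRG (limma adjusted p 0.0002063) and 2.58 (SE 0.22) below the cord (limma adjusted p 9.082e-07). The DRG call was lost with nude arrays alone, at -1.46, and after normexp correction, at -0.92.

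Cdh2 had cord levels of 2.19, 2.07, 1.97 and 2.06, DRG levels of 1.63, 1.44, 1.47 and 1.60, and nerve levels of -0.51, 0.10, -0.96 and 0.42, the third not well above background. Cord and DRG lay close together and the nerve apart from both. The nerve was 1.69 (SE 0.19) below the DRG (limma adjusted p 3.26e-05) and 2.23 (SE 0.19) below the cord (limma adjusted p 1.151e-06), and the DRG call was lost after normexp correction, at -0.74. The difference between DRG and cord was not tested for any member.

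**Figure D5:**
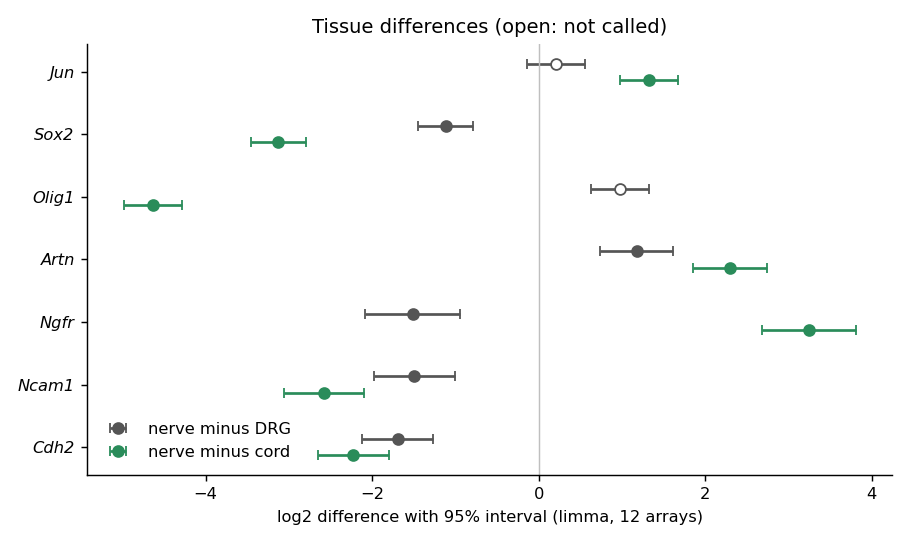
Difference in log2 level between nerve and DRG (grey) and nerve and cord (green) for the 7 members tested, with 95% intervals from limma over 12 arrays. Filled points were called at an adjusted p under 0.05 and at least 2-fold, and open points were not. Ngfr was below the DRG (-1.51) and above the cord (3.24), while Sox2, Ncam1 and Cdh2 were below both.

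The other lists were spread differently over the tissues. Of 5 AP-1 partners tested, 3 were called higher in the nerve than in the DRG (Batf, Fos and Junb), 3 higher than in the cord (Atf3, Batf and Junb) and 0 lower than either. Of 6 Hedgehog pathway genes, Gli2 was called higher than in the DRG, and Disp1, Gli1, Gli2 and Ptch1 higher than in the cord, by 2.13 to 2.58 on the log2 scale. Of 15 myelinating Schwann cell genes, 0 were called higher and Cdh1 lower against the DRG, and 7 higher and 4 lower against the cord. Of 20 other repair genes, Tnc and Vim were called higher and Gap43, Igfbp2 and Notch1 lower against the DRG. Against the cord 5 were called higher (Axl, Nes, Tnc, Vim and Zeb2) and 3 lower (Gap43, Gfap and Igfbp2). Of 11 receptors and partners, 0 were called higher and 5 lower against the DRG, among them Gfra3, Ntrk2, Ntrk3 and Ret, and 6 higher and 4 lower against the cord.

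The genes whose level followed each member most closely over the 12 arrays were sought among 7949 genes well above background on all of them. The arrays fall into 3 tissues, whose differences weigh on every such correlation, and the values are a description without a test. Jun was followed most closely by Tmem88 (Pearson r = 0.978), Pdgfrb (0.976), the PDGF receptor of pericytes and fibroblasts, and Il13ra1 (0.975). Close to Sox2 were Ica1 (0.992) and Ppp2r1a (0.990), and Olig1 was followed by Gng13 (0.997), Pak1 (0.991) and Slc32a1 (0.990), the vesicular transporter of inhibitory neurons. Ngfr was followed by Olfml2a (0.982), Nt5dc2 (0.971) and Tpcn1 (0.968), and Ncam1 by Cacna2d1 (0.971), a calcium channel subunit, Dok5 (0.971) and Pcdh17 (0.969).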

How the data were processed

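Total RNA was labelled with Cy3 and hybridized to Agilent SurePrint G3 Rat GE arrays. The intensity values are the processed spot signals that the authors deposited, from Feature Extraction (10.7.3.1 in the file headers, 10.5 in the submitters' notes), which subtracted local background and detrended. Per spot, the authors also deposited yes-or-no flags of other kinds (above background, saturated, outlying). The log2 values are the normalized probe values deposited by the authors from GeneSpring. They served as an alternative and correlated with the scanner signals at 0.994 or more on each array.

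Spots flagged as outliers were dropped, log2 signals of a probe's spots were averaged, and the array median was subtracted, following the median normalization of the methods. A probe was well above background if most of its spots were. Of 30367 probes, 18006 were named through RefSeq accessions (GRCr8 annotation), and a gene took its brightest probe. Probe sequences were not searched. A gene entered a ratio if well above background on at least 1 of the arrays, the other raised to that array's lowest detected signal. Bounds carry this floor, and a gene whose floor turned the sign was left out. A bound could therefore count only toward the side on which the gene was seen.

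Ratios were called at 2-fold, without a test, and the methods' t-test was not run. Tissues were compared with limma 3.58.1 in R 4.3.3. Ratios were computed in Python 3.11.15 with numpy 2.4.6 and pandas 2.3.3. On simulated data with 200 changed genes, the 2-fold rule recovered 200 in each comparison, and limma recovered 196 (DRG) and 197 (cord).

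The members, lists and tests were chosen with earlier results of these data known. From each list, the 3 genes with the largest wild-type nerve ratio on arrays both above background were named, and the 3 closest neighbours of each member present on all arrays. Some genes that this rule names are not reported here. Alternatives were other scalings (75th percentile, quantile, cyclic loess), normexp (offset 50, on the median spot signal), the authors' values, other filters, probes and thresholds, and, for tissues, other covariates, 1 rat type and each array left out. Filters, floor and probe average cannot change the ratio of a gene with 1 probe well above background on both arrays. In the nerves the authors' values gave member ratios close to those of quantile normalization.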

Additional observations from a re-analysis of the deposited data

Results flagged for a closer look

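In 9 cases a member lay on opposite sides of 0 in wild-type and nude rats, on 1 pair of arrays for each, and the difference was not tested. The rat types also differed in strain and in the day after injection, and in the slide for DRG and cord. In 4 of the 9 cases the signs were the same under 1 alternative. The wild-type value of Sox2 in the nerve became -0.0023 and that of Cdh2 in the cord -0.06, and the nude value of Olig1 in the nerve became -0.15 and that of Ngfr in the DRG 0.04. The second Sox2 probe also went the other way in the wild-type DRG, with levels of 0.24 on the injected side and 0.30 on the contralateral one.

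In the nerve the wild-type minus nude difference in log2 ratio was 1.20 for Artn (0.60 and -0.60), 0.76 for Sox2 (0.33 and -0.43) and -0.44 for Olig1 (-0.19 and 0.25). The median of all genes differed in the same comparison, at -0.05 in wild-type and -0.38 in nude rats. In the DRG the difference was 0.60 for Sox2 (0.18 and -0.42), 0.53 for Ncam1 (0.17 and -0.36), 0.44 for Ngfr (0.32 and -0.12) and 0.33 for Cdh2 (0.20 and -0.14). In the cord it was 0.44 for Jun (0.22 and -0.22) and 0.21 for Cdh2 (0.12 and -0.09).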

How the results depend on the processing

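The count of members past 2-fold in the wild-type nerve was 1 and became 2 with the 75th percentile (Btc and Ngfr) and 3 without filter and floor (Shh, Btc and Ngfr). In the nude nerve it was 2 and became 1 with the 75th percentile, 1 when both arrays had to be above background, 0 after normexp, 0 at 3-fold and 4 without filter and floor. In the wild-type cord it was 1 and became 0 after normexp and 0 at 3-fold. For nerve against DRG 5 members were called, 1 after normexp, 1 at 3-fold and 3 with nude arrays only. Of all 11095 genes, 2074 were called there, 1032 after normexp, 1009 at 3-fold and 1672 with nude arrays only. With each array left out in turn 5 to 6 members were called against the DRG and 7 to 7 against the cord. No call turned its direction, and 98 other counts of members stayed within 1.5 times. The cause was not tested, except that the 3-fold threshold is stricter by construction. The constant of 50 that normexp adds also draws ratios of dim probes toward 0 by construction. It weighs unequally on the arrays, whose median spot signal was 23.5 in the injected and 83.9 in the contralateral nude nerve. How much of the normexp changes came from this constant was not tested. A single rat type was not stricter throughout, since wild-type arrays alone called the same 5 members and 2093 of all genes against the DRG. Over all genes, 711 were higher and 1280 lower in the nude nerve, but scaling to the 75th percentile gave 1128 higher and 530 lower, and normexp gave 27 and 4070. Without filter and floor 4085 were higher and 1655 lower there, of 15159 genes, and at 3-fold 168 and 213. In the wild-type cord 101 were higher and 92 lower, against 20 and 62 after normexp and 28 and 11 at 3-fold. In the wild-type nerve 478 were higher and 417 lower, against 202 and 107 after normexp and 831 and 742 without filter and floor.

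Ratios compare arrays of 1 rat type, and in the comparison of tissues rat type stood in the fit as the block for the pool of animals. Without covariates, and so without that pairing, 5 members were called against the DRG and 7 against the cord, the same genes as with it. Signal over background limits Shh, well above it on 0 of 12 arrays, and Btc, on 3.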
